A study of Mus musculus with 14 samples.

Results

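The genes described here encode the Tead transcription factors (Tead1, Tead2, Tead3 and Tead4), their coactivators Yap (Yap1) and Taz (Wwtr1), and the Vestigial-like cofactors Vgll2, Vgll3 and Vgll4. They were taken by symbol from the gene annotation of the expression table, which gave 9 genes among 24016 transcripts, all 9 of them among the 14312 transcripts whose mean value reached 1. The table was made from C2C12, an established line of mouse myoblasts whose cells exit the cycle and form myotubes once serum is lowered. Cells treated with a control siRNA (siCtrl) or with a pool of siRNAs against Klf5 (siKlf5) were differentiated, and polyA RNA of days 0, 1, 2 and 3 was sequenced, which gave 8 libraries, 1 for each day of each siRNA. Besides the siRNA, the days differed by the change from growth medium to low-serum differentiation medium, which started differentiation, and by the time since then. No other treatment was named. Every library came from the same cell line, and the labels do not say whether the 4 days of a siRNA came from separate cultures. Values are labelled FPKM and are reads per length of exon, scaled by the authors to a total of 1e+07 reads for each library. They are thus higher than on the per-million scale usual for FPKM. The limit of a mean of 1 is on this same scale. At most 3 reads per position were kept, which can lower high values more in deeper libraries. Comparisons of levels between genes and libraries are therefore approximate, and the size of this effect was not tested.

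Tead proteins bind DNA at the M-CAT element, whose core reads CATTCC, but activate transcription poorly on their own. Yap and Taz, which the Hippo kinase cascade keeps in the cytoplasm by phosphorylation, and the Vgll proteins all attach to the Tead surface and compete for it. In skeletal muscle, M-CAT elements sit in the promoters of contractile genes, Tead4 is a known target of MyoD and myogenin, and Yap is best known for holding satellite cells and myoblasts in proliferation.

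Klf5 itself, the target of the siRNA, had values of 224, 381, 614 and 933 in the siCtrl libraries of days 0, 1, 2 and 3 and of 35.1, 159.6, 192 and 211 in the siKlf5 libraries. It was lower on each of the 4 days, at 15.7, 41.9, 31.3 and 22.7% of the control value. Over the 4 days the change was -1.94 ± 0.20 on the log2 scale (SE, limma on log2(FPKM + 0.1) with day as a block, Benjamini-Hochberg adjusted p = 0.0244), a call that was lost when any 1 of the 8 libraries was left out (adjusted p 0.27 to 0.693). Reads recovered from the values numbered 7850497 (siCtrl day 1) to 20301506 (siCtrl day 2), with 11808641 in siKlf5 day 2. They are the reads kept over exons of the listed transcripts, not all reads of a library. The 45S ribosomal transcript took 0.741 to 2.16% of these recovered reads, with a larger share in siKlf5 than in siCtrl on days 0, 2 and 3. All 5 myoblast markers and all 5 myotube markers were expressed, and the summed myotube markers ran from 933 to 11111 in siCtrl and from 655 to 9710 in siKlf5. Of the adipocyte markers only Pparg reached a mean of 1, with Plin1 and Lep listed at 0 in all libraries and Pparg at up to 156. In the same way 1 of 4 endothelial, 2 of 4 blood and 1 of 4 osteoblast markers reached a mean of 1, the highest single value being 23.5 for Cd68. The values of the members ran from 46.6 to 389.7. In bulk RNA, fewer cells of a type and less RNA per cell cannot be told apart.

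Tead4 rose most among the members. Its values were 76.9, 183, 369.9 and 298 in the siCtrl libraries of days 0, 1, 2 and 3 and 58.3, 106, 223 and 235 in the siKlf5 libraries. The day 0 library was the lowest under either siRNA, and no library of day 2 or 3 overlapped those of day 0. Day 3 stood above day 0 by 1.98 ± 0.15 on the log2 scale (SE, 95% interval 1.63 to 2.33), which is 3.95-fold (limma, Benjamini-Hochberg adjusted p = 7.95e-05). Within siCtrl alone the difference was 1.95 and within siKlf5 alone 2.01. Among the 9 genes ordered by level, Tead4 moved from the 8th place on day 0 to the 2nd on day 3 under both siRNAs. The RefSeq model counted, NM_001080979, lies on the minus strand of chr6:128177161-128250831 (mm9).

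Tead3 had the lowest mean level of the 9 genes and also increased. Its values were 49.3, 107, 147 and 147 in siCtrl and 46.6, 90.5, 128 and 108 in siKlf5, again with both day 0 libraries lowest and no overlap with the later days. The day 3 change was 1.39 ± 0.16 on the log2 scale, or 2.62-fold (limma, Benjamini-Hochberg adjusted p = 5.31e-04). Its model, NM_001098226, lies at chr17:28468618-28487545 on the minus strand.

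Tead1 and Tead2 had flatter courses. Tead1, at chr7:119902898-120050319 on the plus strand (NM_001166585), had values of 110.3, 183, 154 and 131 in siCtrl and 111, 163, 113 and 151 in siKlf5. Its highest libraries were those of day 1, and only day 1 against day 0 passed the test (0.64 ± 0.17, limma, Benjamini-Hochberg adjusted p = 0.0376), a call that did not survive leaving out any 1 library (adjusted p 0.0679 to 0.244). Tead2, at chr7:52471123-52488989 on the plus strand (NM_011565), had values of 244, 255, 299 and 265 in siCtrl and 218, 196, 222 and 168 in siKlf5. Every siKlf5 value of Tead2 lay below every siCtrl value, and no day differed from day 0 past the threshold (day 3: -0.13 ± 0.14, adjusted p = 0.517).

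**Figure D1:**
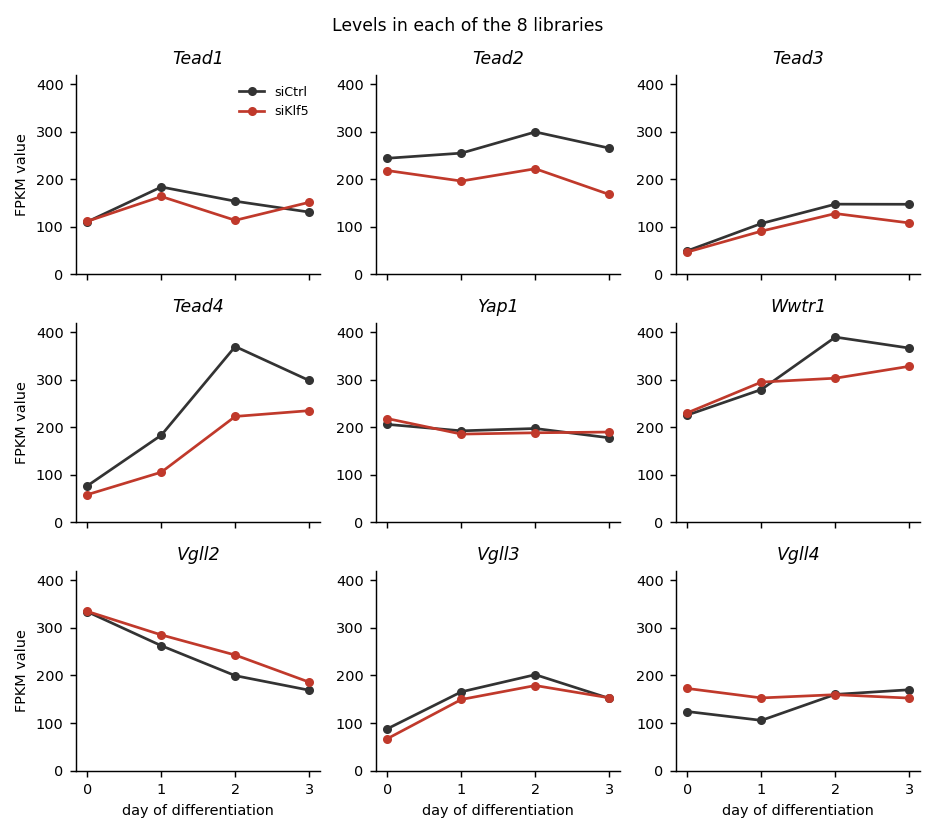
FPKM values (vertical axes, same scale) of the 9 genes against day of differentiation in the 4 siCtrl (black) and 4 siKlf5 (red) libraries, 1 point per library. Tead4 climbs from 76.9 to a highest value of 369.9 in siCtrl, Vgll2 declines from 334 to 169, and Yap1 stays between 178 and 218 in all 8 libraries.

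The makeup of the Tead family shifted from Tead2 towards Tead4. The 4 Tead values summed to 480.4, 728, 970 and 841 in the siCtrl libraries of days 0, 1, 2 and 3 and to 434, 555, 686 and 662 in the siKlf5 libraries. Tead2 made up 50.8% of the sum on day 0 and 31.5% on day 3 in siCtrl, against 50.2% and 25.3% in siKlf5. Tead4 made up 16.0, 25.2, 38.1 and 35.5% in siCtrl and 13.4, 19.0, 32.5 and 35.5% in siKlf5. Tead2 was thus the most abundant Tead transcript in all libraries of days 0 and 1, and Tead4 in siCtrl on day 2 and in both libraries of day 3, while in siKlf5 on day 2 they were level at 223 for Tead4 and 222 for Tead2. The shares are a description and were not tested.

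**Figure D2:**
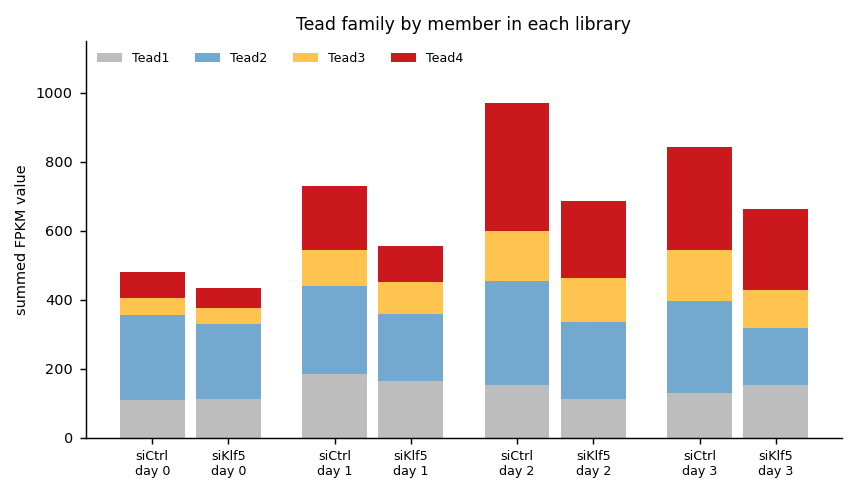
Summed FPKM values of Tead1, Tead2, Tead3 and Tead4 (stacked bars from 0) in each of the 8 libraries, siCtrl and siKlf5 side by side for each day. The Tead4 segment widens from 16.0 to 35.5% of the bar in siCtrl and from 13.4 to 35.5% in siKlf5, and on each day the siKlf5 bar is the shorter.

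Of the coactivators, Wwtr1 rose and Yap1 did not pass the test. Yap1, at chr9:7932001-8004596 on the minus strand (NM_009534), had values of 206, 193, 197 and 178 in siCtrl and 218, 186, 188 and 190.0 in siKlf5. No day differed from day 0 past the threshold, and the day 3 change was -0.21 with a 95% interval of -0.47 to 0.06 (limma, Benjamini-Hochberg adjusted p = 0.213). Wwtr1, which encodes Taz, at chr3:57259566-57379798 on the minus strand (NM_133784), had values of 226, 279, 389.7 and 367 in siCtrl and 231, 295, 303 and 328 in siKlf5. Both day 0 libraries were the lowest, and the day 3 change was 0.60 ± 0.13, or 1.52-fold (limma, Benjamini-Hochberg adjusted p = 0.0106). That call was lost without siCtrl day 0 (adjusted p = 0.123), siCtrl day 3 (0.124), siKlf5 day 0 (0.0734) or siKlf5 day 3 (0.0948). Taz made up 52.3% of the Yap1 and Wwtr1 values together on day 0 and 67.3% on day 3 in siCtrl, and 51.4 and 63.3% in siKlf5.

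Among the Vgll cofactors, Vgll2 fell, Vgll3 rose and Vgll4 did not pass the test. Vgll2, a muscle-enriched cofactor also called Vito-1, lies at chr10:51742308-51748277 on the plus strand (NM_153786) and had values of 334, 263, 199.6 and 169 in siCtrl and 335, 285, 243 and 186 in siKlf5. Its level was lower on each day than on the day before under both siRNAs, and by day 3 it fell by 0.92 on the log2 scale (SE 0.11, limma, Benjamini-Hochberg adjusted p = 8.33e-04). Vgll3, at chr16:65815878-65863311 on the plus strand (NM_028572), had values of 87.9, 166, 202 and 152 in siCtrl and 67.1, 149.5, 179 and 153 in siKlf5. It was highest on day 2 and rose by 0.99 ± 0.14 by day 3 (limma, Benjamini-Hochberg adjusted p = 0.00155). Vgll4, a cofactor known to displace Yap from Tead, at chr6:114812108-114871770 on the minus strand (NM_177683), had values of 124, 106, 160.2 and 169.9 in siCtrl and 173, 153, 159.6 and 152 in siKlf5. The libraries of day 0 spanned those of days 2 and 3, and the day 3 change was 0.14 with a 95% interval of -0.30 to 0.58. The 3 Vgll values summed to 491 to 588 in the 8 libraries while the share of Vgll2 in them went from 61.2 to 34.4% in siCtrl and from 58.3 to 37.9% in siKlf5.

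**Figure D3:**
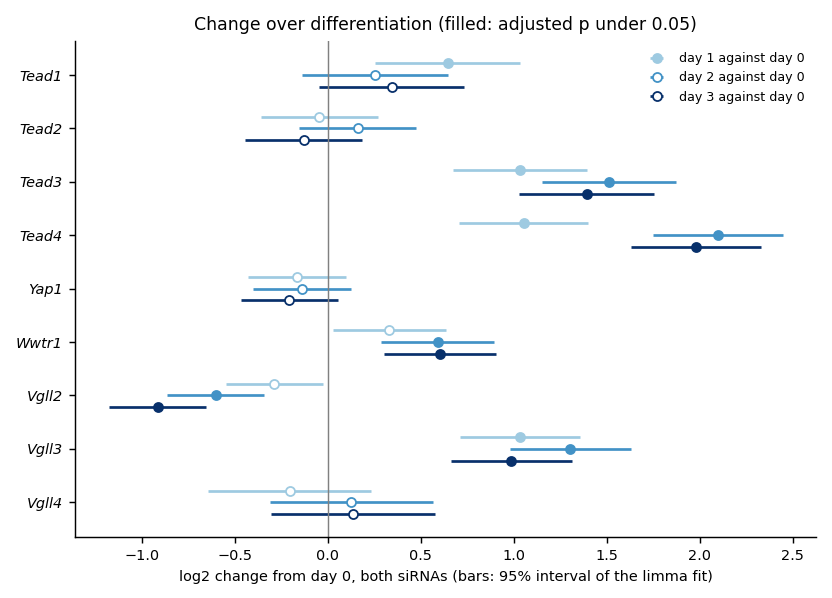
Log2 change of each of the 9 genes on days 1, 2 and 3 against day 0 (horizontal axis) from the limma fit to all 8 libraries, with 95% intervals as bars and filled points where the adjusted p is under 0.05. On day 3 the filled points are Tead4 (1.98), Tead3 (1.39), Vgll3 (0.99), Wwtr1 (0.60) and Vgll2 (-0.92).

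Over the 9 genes, 4 rose and 1 fell on day 3 against day 0, where 12.8% of the 14312 transcripts tested were called higher and 17.6% lower, and the members' median was 0.34 against -0.09 for all transcripts tested. On day 2 the same 4 genes were higher (Tead4 2.10, Tead3 1.51, Vgll3 1.31 and Wwtr1 0.59) and Vgll2 was lower (-0.60), beside 11.5% called higher and 11.6% lower. On day 1 Tead4 (1.05), Tead3 (1.03), Vgll3 (1.03) and Tead1 (0.64) were higher and no member was lower, beside 6.82% and 9.93%. The 3 comparisons share the day 0 libraries. With the libraries rescaled to their upper quartile or to their median ratio, the count over all transcripts on day 3 went from 1831 higher and 2516 lower to 2151 and 1878 or 2175 and 1825, and on day 1 from 976 and 1421 to 1294 and 895 or 1195 and 969. These scalings moved the median of all transcripts by 0.12 and 0.10 on day 1 and by 0.10 and 0.10 on day 3. A scaling shifts all transcripts of a library nearly alike. The smallest change in size of the 5 members called on day 3 was 0.60 (Wwtr1), so shifts of this size could not turn their directions. Leaving out 1 library at a time kept the day 3 calls of Tead4, Tead3, Vgll2 and Vgll3.

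Ordered by mean level over the 8 libraries, Wwtr1 (302) came first, followed by Vgll2 (252), Tead2 (233), Yap1 (195), Tead4 (194), Vgll4 (149.6), Vgll3 (144), Tead1 (139.6) and Tead3 (103). No gene of this order was above the next in all 8 libraries. The higher neighbour was higher in 6 of 8 libraries for the first 3 pairs and for Tead1 over Tead3, in 5 for Tead4 over Vgll4, and in 4 for Yap1 over Tead4, Vgll4 over Vgll3 and Vgll3 over Tead1, so the order of these last pairs changed between libraries. Yap1 was above Tead4 in all 4 libraries of days 0 and 1 and below it in all 4 of days 2 and 3. Wwtr1 had the highest value of the 9 in all 6 libraries of days 1 to 3, and Vgll2 in both of day 0.

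With Klf5 knocked down, none of the 9 genes passed the adjusted threshold over the 4 days, where 0.0629% of all transcripts (9 of 14312) did and 1374 had an unadjusted p under 0.05. The largest difference among the members was that of Tead4, at -0.57 ± 0.11 on the log2 scale (95% interval -0.81 to -0.32, limma, unadjusted p = 7.33e-04, Benjamini-Hochberg adjusted p = 0.172). Tead4 was lower in siKlf5 on 4 of 4 days, by -0.40, -0.80, -0.73 and -0.34 on days 0, 1, 2 and 3. On days 1, 2 and 3 the 95% counting interval of the ratio lay below 0 (-1.25 to -0.35, -0.96 to -0.50 and -0.61 to -0.08), and on day 0 it did not (-0.94 to 0.13). These intervals cover counting error only. The second largest was that of Tead2, at -0.41 ± 0.10 (95% interval -0.63 to -0.19, unadjusted p = 0.00291, limma, Benjamini-Hochberg adjusted p = 0.267), also lower on 4 of 4 days, by -0.16, -0.38, -0.43 and -0.66, with counting intervals below 0 on days 2 (-0.72 to -0.15) and 3 (-1.02 to -0.31). Tead3 was lower on 4 of 4 days as well, by -0.24 ± 0.11 (adjusted p = 0.534). In 4 pairs a two-sided exact sign-flip permutation test cannot give a p below 0.125.

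The other members differed less. Tead1 was at -0.10 over the 4 days (95% interval -0.37 to 0.18), with -0.44 on day 2 and 0.21 on day 3, whose counting intervals (-0.62 to -0.25 and 0.01 to 0.41) lay on opposite sides of 0. Yap1 was at 0.01, with a 95% interval of -0.17 to 0.20 and all 4 counting intervals across 0. For Wwtr1 the value was -0.10 (-0.32 to 0.11), with day 2 alone below 0 by its counting interval (-0.36, -0.52 to -0.20). Over the 9 genes, counting intervals below 0 numbered 0, 1, 4 and 3 on days 0, 1, 2 and 3, and 1 lay above 0, on day 3. Day 2 rests on siCtrl day 2, the deepest library, and whether depth contributed was not tested. Vgll2 was at 0.14 (-0.05 to 0.32) and was higher in siKlf5 on 4 of 4 days, Vgll3 at -0.17 (-0.40 to 0.05) and Vgll4 at 0.21 (-0.10 to 0.52). Whether the difference between the siRNAs changed in a straight line over the days was tested in the same way, and 0 of 14312 transcripts passed (694 had an unadjusted p under 0.05). Vgll4 had the smallest unadjusted p among the members in that fit (-0.24 per day, 95% interval -0.45 to -0.03, unadjusted p = 0.0281, limma, Benjamini-Hochberg adjusted p = 0.966), its siKlf5 values being the higher on days 0 and 1 (0.48 and 0.53) and the counting intervals of all 4 days including 0.

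**Figure D4:**
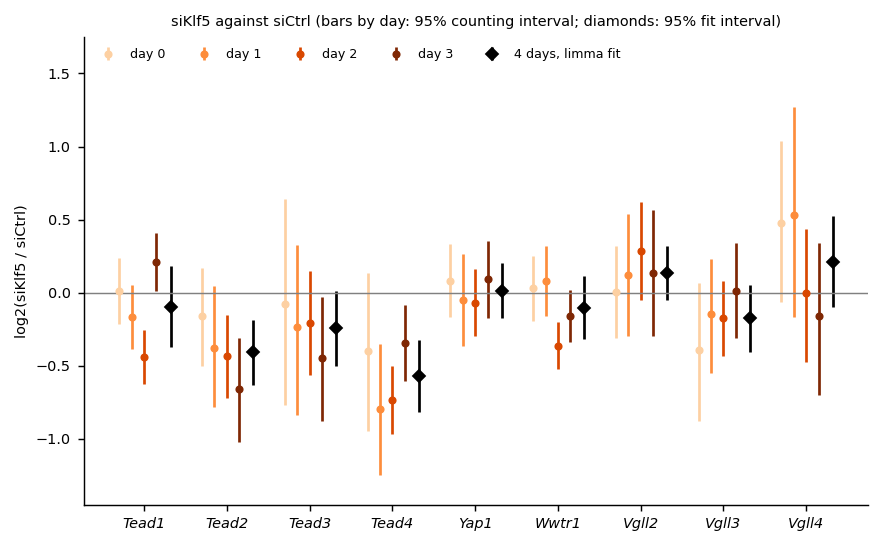
Log2 ratio of siKlf5 over siCtrl (vertical axis) for the 9 genes on days 0 to 3 (circles, light to dark, bars 95% counting intervals) and over the 4 days from the limma fit (black diamonds, bars 95% intervals). All 4 circles of Tead4, Tead2 and Tead3 lie below 0, the Tead4 diamond is at -0.57, and the Yap1 diamond is at 0.01.

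Counted by day with a limit of 1.5-fold, 1 member was lower on day 1 (Tead4, 57.5% of control), 1 on day 2 (Tead4, 60.2%) and 1 on day 3 (Tead2, 63.2%), and 0 on day 0. Over all transcripts 11.1, 11, 13 and 12.5% were lower by that limit on days 0, 1, 2 and 3. No member was higher by that limit on any day, beside 9.22, 16.4, 7.69 and 10.7%. With 1 library per siRNA and day these counts have no test.

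Genes of the Hippo kinase cascade, which phosphorylates Yap and Taz, were called about as often in the lower direction as transcripts in general. Of its 15 genes 0 were higher and 3 were lower on day 3, beside 12.8% called higher and 17.6% lower over all transcripts, with a median of -0.29 against -0.09 for all transcripts. Lats1, a kinase that phosphorylates Yap directly, fell by 0.97 (SE 0.19, limma, Benjamini-Hochberg adjusted p = 0.00627), from 139 to 66.1 in siCtrl and from 128 to 70.2 in siKlf5. Taok3, a kinase upstream of the Hippo kinases, was lower by -0.57 ± 0.17 (adjusted p = 0.0385) and Mob1a, the coactivator of Lats kinases, by -0.43 ± 0.11 (adjusted p = 0.0179), and neither call held under the upper-quartile scaling (0.0839 and 0.069) or the median-ratio scaling (0.0858 and 0.0768). Lats1 lost its call without siCtrl day 0 (0.075), siCtrl day 3 (0.0926) or siKlf5 day 0 (0.0901). Mob1a lost it without siCtrl day 0 (0.117), siCtrl day 3 (0.118), siKlf5 day 0 (0.0864) or siKlf5 day 3 (0.0612), and Taok3 lost it without any library of days 0, 2 or 3 (0.0708 to 0.247).

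Among 13 other regulators of Yap and Taz, 12 were tested, and 2 were higher and 1 lower on day 3, counts near the 12.8% and 17.6% over all transcripts. Amot, which encodes the junction protein angiomotin that binds Yap, went from 43.9 to 88.0 in siCtrl and from 49.1 to 174 in siKlf5 (1.41 ± 0.23, limma, Benjamini-Hochberg adjusted p = 0.00287). That call was lost without siKlf5 day 0 (adjusted p = 0.0522) or siKlf5 day 3 (0.0745). Its relative Amotl2 was higher by 0.50 ± 0.16 (adjusted p = 0.0471) and Ptpn14, a phosphatase that binds Yap, was lower by -0.71 ± 0.22 (adjusted p = 0.0431). Neither of these calls held without the filter on low values (0.0625 and 0.0523), and that of Ptpn14 was also lost with upper-quartile (0.0752) and median-ratio scaling (0.0743). Ptpn14 lost its call without any 1 of the 8 libraries (0.0649 to 0.301), and Amotl2 without any library of days 0, 2 or 3 (0.114 to 0.3).

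Of 22 genes known as targets of Yap, Taz and Tead, 21 were tested, and 5 were higher and 2 lower on day 3, beside 12.8% and 17.6% over all transcripts, with a median of 0.28. Amotl2 and Ptpn14 stand in this list and in that of the regulators, so their calls are counted in both. F3, the coagulation tissue factor, went from 8.16 to 47.0 in siCtrl and from 25.1 to 59.8 in siKlf5 (1.88 ± 0.37, limma, Benjamini-Hochberg adjusted p = 0.00692), a call lost without siCtrl day 0 (0.0857) or siCtrl day 3 (0.114). Gadd45a, a stress-response gene, rose by 1.78 ± 0.13 (adjusted p = 6.73e-05), from 467 to 1392 in siCtrl and from 343 to 1365 in siKlf5. Rbms3, an RNA-binding protein, was higher by 1.01 ± 0.26 (adjusted p = 0.0231), which did not hold without siKlf5 day 3 (0.186), siKlf5 day 0 (0.147), siCtrl day 3 (0.106), siKlf5 day 2 (0.0758) or siCtrl day 2 (0.0751). The most used readouts of Yap activity did not pass the test on day 3, with Ctgf at 0.41 ± 0.35, Cyr61 at 0.28 ± 0.26 and Ankrd1 at 0.43 ± 0.22. Cyr61 passed without siCtrl day 0 (limma, Benjamini-Hochberg adjusted p = 0.034). On day 1 Ankrd1 was higher than on day 0 by 0.88 ± 0.22 (adjusted p = 0.0304), a call lost without any 1 of the 8 libraries (0.0585 to 0.273). Ctgf was 83.0, 55.7, 104 and 60.5 in siCtrl and 39.5, 59.8, 102 and 95.6 in siKlf5, so its libraries overlapped between days. These 3 genes fell outside the rule for named genes and were chosen after their values were seen. Under siKlf5, 0 genes of these 3 lists passed the adjusted threshold over the 4 days, beside 0.0629% of all transcripts (9 of 14312). At that share, 0 in lists of this size carries no information about these genes.

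Promoters with the M-CAT core are shown for 2 members that rose, 3 muscle genes and 1 target, so that the Tead binding letters can be seen beside the values. In the 250 bases before the start of transcription, CATTCC was searched on both strands in RefSeq promoters of GRCm38.p6, a later build than the mm9 of the expression table. Windows were matched by gene symbol and were not tied to the RefSeq model whose values are given. It was present in 12.6% of all 32851 windows and in 14.4% of all genes with a window. Windows were found for 7 of the 9 members (not Tead1 or Tead4), and 5 of these held the core, namely Tead3, Yap1, Wwtr1, Vgll3 and Vgll4. It was held by 3 of 13 genes of the Hippo cascade, 5 of 8 other regulators and 6 of 15 targets. These lists overlap. Amotl2 and Ptpn14 hold the core and are counted among both the regulators and the targets. Lats2, without a match, is counted in both the cascade and the targets. The 5 muscle genes were listed because M-CAT elements are known in them. All 5 held the core in at least 1 window (5 of 7 windows), which their choice made likely and which is no contrast with the other lists. A match is only a match of letters. Below, capitals mark CATTCC or, where the core lies on the other strand, GGAATG, and each sequence runs 5′ to 3′ and ends at the base before the start site.
Tead3 (chr17:28350806-28351055, - strand): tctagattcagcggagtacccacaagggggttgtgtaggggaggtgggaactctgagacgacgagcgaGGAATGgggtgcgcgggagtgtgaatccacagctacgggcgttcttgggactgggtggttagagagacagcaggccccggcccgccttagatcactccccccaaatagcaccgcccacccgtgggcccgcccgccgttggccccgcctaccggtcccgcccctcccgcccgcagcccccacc
Vgll3 (chr16:65814939-65815188, + strand): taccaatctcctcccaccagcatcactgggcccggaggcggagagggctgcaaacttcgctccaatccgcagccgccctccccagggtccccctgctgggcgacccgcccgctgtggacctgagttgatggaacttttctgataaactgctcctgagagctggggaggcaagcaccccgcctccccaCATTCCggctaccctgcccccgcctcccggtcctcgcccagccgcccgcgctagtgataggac
Tnnt2 (chr1:135836084-135836333, + strand): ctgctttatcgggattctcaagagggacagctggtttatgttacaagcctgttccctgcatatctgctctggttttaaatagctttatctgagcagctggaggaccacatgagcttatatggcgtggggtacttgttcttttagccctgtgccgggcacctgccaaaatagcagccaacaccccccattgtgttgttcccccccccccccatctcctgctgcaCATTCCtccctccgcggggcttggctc
Acta1 (chr8:123894776-123895025, - strand): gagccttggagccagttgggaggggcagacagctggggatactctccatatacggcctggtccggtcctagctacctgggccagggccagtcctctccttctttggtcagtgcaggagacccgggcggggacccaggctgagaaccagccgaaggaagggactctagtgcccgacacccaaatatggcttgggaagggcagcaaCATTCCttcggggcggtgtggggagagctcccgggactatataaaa
Myh7 (chr14:54994627-54994876, - strand): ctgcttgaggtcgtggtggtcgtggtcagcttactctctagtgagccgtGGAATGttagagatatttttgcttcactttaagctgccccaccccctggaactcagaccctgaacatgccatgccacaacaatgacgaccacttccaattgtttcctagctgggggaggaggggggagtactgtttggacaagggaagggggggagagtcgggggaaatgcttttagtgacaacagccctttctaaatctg
Ankrd1 (chr19:36119845-36120094, - strand): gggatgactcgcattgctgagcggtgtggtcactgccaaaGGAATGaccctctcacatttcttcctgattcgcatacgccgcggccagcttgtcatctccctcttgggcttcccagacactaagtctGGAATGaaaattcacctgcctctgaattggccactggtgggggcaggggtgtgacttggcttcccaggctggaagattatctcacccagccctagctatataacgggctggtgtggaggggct
The first base of the core lay 182 bases before the start in this Tead3 promoter, 63 in Vgll3, 27 in Tnnt2, 46 in Acta1, 201 in Myh7, and 123 and 210 in Ankrd1. Another annotated Tead3 start had matches at 114 and 123 bases, and the one with the window chr17:28350347-28350596 had 0. The other annotated starts of Tnnt2 (chr1:135836739-135836988) and Myh7 (chr14:54994550-54994799) also had 0.

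The 5 muscle genes with M-CAT elements were all called higher on day 3, beside 12.8% of all transcripts. All 5 encode contractile proteins and were listed with earlier results of these data known, so this count says nothing of the M-CAT element. Tnnt2, cardiac troponin T, went from 506 to 3635 in siCtrl and from 408 to 2993 in siKlf5 (2.86 ± 0.13, limma, Benjamini-Hochberg adjusted p = 7.07e-06). Acta1, skeletal alpha-actin, went from 351 to 4150.1 and from 363 to 4351 (3.57 ± 0.14, adjusted p = 3.80e-06), and Acta2, smooth muscle alpha-actin, from 439 to 1196 and from 395 to 1207 (1.53 ± 0.15, adjusted p = 2.53e-04). The siRNA difference of these 3 over the 4 days was -0.16 ± 0.09, 0.17 ± 0.10 and 0.14 ± 0.10, with none past the threshold. Myh7, the slow and beta-cardiac myosin heavy chain, had values of 7.86, 20.6, 106 and 311 in siCtrl and 2.88, 5.11, 15.7 and 55.5 in siKlf5. It was at 36.7, 24.8, 14.7 and 17.9% of control on days 0, 1, 2 and 3, and its counting intervals lay below 0 on all 4 days. Over the 4 days its difference was -2.16 ± 0.29, short of the adjusted threshold (limma, unadjusted p = 6.89e-05, Benjamini-Hochberg adjusted p = 0.0727). Myh6, alpha-cardiac myosin, had values of 1.53, 3.39, 18.8 and 52.4 in siCtrl and 0.936, 0.879, 4.74 and 12.3 in siKlf5 (-1.63 ± 0.52, adjusted p = 0.39). It is a near copy of Myh7 next to it in the genome, so reads may have been split between them and their values are uncertain. On day 3 both were higher than on day 0, by 4.75 ± 0.40 for Myh7 and 4.30 ± 0.73 for Myh6, the latter not without siCtrl day 3 (adjusted p = 0.0698). Tead4 had the largest siRNA difference of the members and Myh7 that of this list, both lower in siKlf5 on 4 of 4 days. Tead2, Tead3 and Myh6 were also lower on 4 of 4 days, Acta1 was higher on all 4, and Tnnt2 and Acta2 differed in direction between days. A link between Tead4 and Myh7 was not tested.

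**Figure D5:**
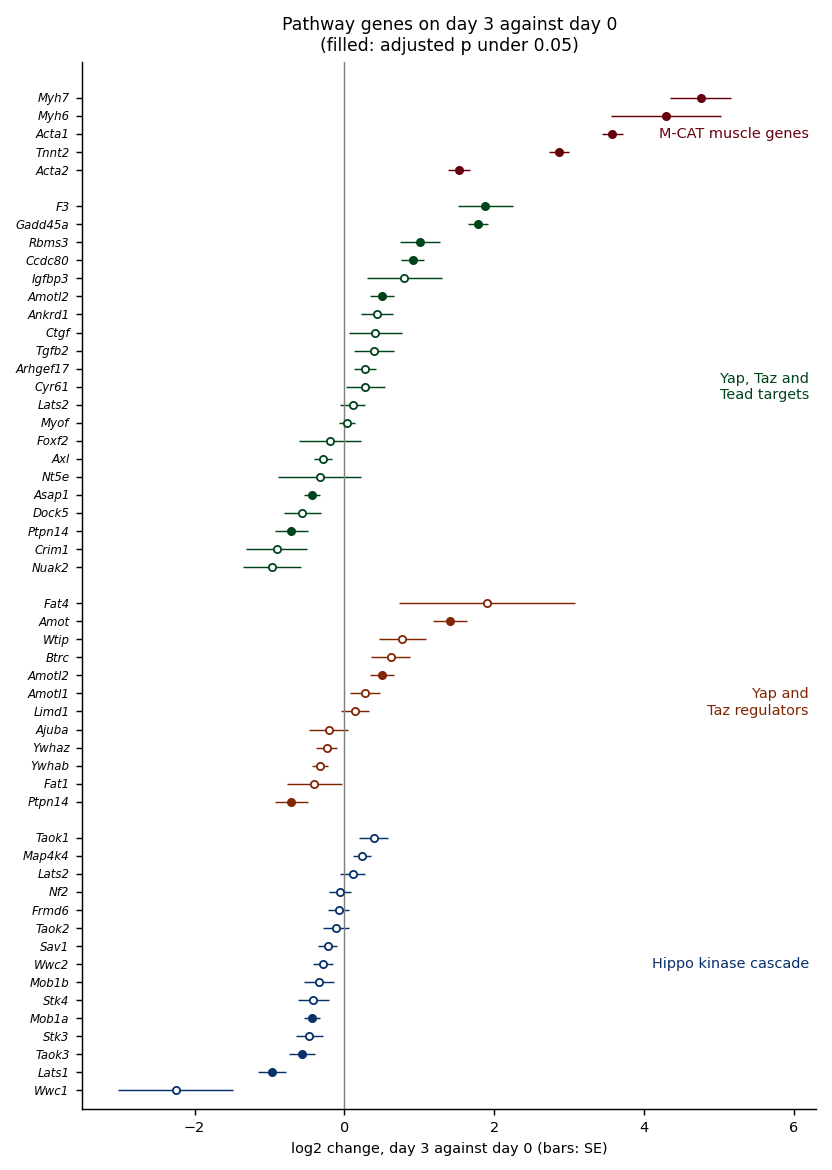
Log2 change on day 3 against day 0 (horizontal axis, bars SE, limma fit to 8 libraries) for each tested gene of the Hippo kinase cascade, the other Yap and Taz regulators, the Yap, Taz and Tead targets and the muscle genes with M-CAT elements, filled where the adjusted p is under 0.05. All 5 muscle genes are filled and lie between 1.53 and 4.75, and 3 of 15 genes of the cascade are filled, all below 0, beside 12.8% of all transcripts called higher and 17.6% lower.

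Across the 8 libraries, the transcripts whose log2 values ran most like those of a member were named by Pearson's r, among 11590 with a mean of at least 10. For Tead4 these were Xirp1, an actin-binding protein of striated muscle (r = 0.996), and Shroom3, a regulator of cell shape (0.987). For Tead3 they were Ppfia4 and Riok3 (each 0.995), for Vgll3 Stard13 (0.986) and Tfcp2 (0.983), and for Wwtr1 Tceanc (0.994) and Kcnn3 (0.991). Vgll2 ran like Lasp1 (0.990), and Yap1 like Cacul1 (0.983) and Nin (0.982). Tead2 was closest to Igbp1 (0.977) and Jmjd7 (0.963), Tead1 to Taok1 (0.955), a kinase of the Hippo cascade, and Plin3 (0.951), and Vgll4 to Cbx7 (0.978) and Snx19 (0.960). The number of transcripts with r above 0.9 was 667 for Tead3 and 486 for Tead4, against 16 for Tead1 and 11 for Tead2. The points share library, day and siRNA, and a correlation over 8 libraries is a description.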

How the data were processed

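Paired-end polyA reads from 8 C2C12 libraries were aligned by the authors to mm9 with STAR and counted with HOMER over the exons of RefSeq transcripts on both strands, keeping at most 3 reads per position and 1 transcript per gene. Tool versions for the RNA-seq steps were not given in the sources used here. The deposited values are FPKM, scaled by the authors to 1e+07 reads per library. Another 8 columns of log2 values, 1 of which names no day, were not used, and neither were the 6 ChIP-seq samples.

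Transcripts with a mean FPKM of at least 1 were tested on log2(FPKM + 0.1), so fold changes of low genes are understated. limma 3.58.1 in R 4.3.3 was fitted with a mean-variance trend, day and siRNA as factors and Benjamini-Hochberg adjustment over all 14312 transcripts at a threshold of 0.05. With 1 library per siRNA and day the error is what day and siRNA leave (3 residual degrees of freedom, 2 for the trend over days), which assumes that the siRNA difference is alike on all days, and the p-values measure the spread between these samples only. Whole reads were recovered from the smallest step of each library. Low read numbers came mostly as 6, so the exact binomial (Clopper-Pearson, 95%) intervals of ratios on a day were computed on reads divided by 6. The test of the siRNA difference was run on simulated libraries with no day effect and an siRNA effect alike on all days. That assumption was therefore not checked, and neither were the tests between days and of the trend.

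The 9 members and all gene lists were chosen with earlier results of these data known. Named genes were the members, Klf5, up to 3 genes with the largest called change per pathway list, the M-CAT genes and the 2 transcripts most like each member, of which 1 is not reported here. Other pseudocounts, filters, scalings, priors and left-out libraries were tried. Tead protein sequences were not analysed here.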

Additional observations from a re-analysis of the deposited data

How the results depend on the processing

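There was 1 library per siRNA and day, and days served as blocks, so that each siKlf5 library was set against the siCtrl library of its day. The labels carry no replicate numbers. Without the day block 1 transcript was called for the siRNA. Without the mean-variance trend the counts were 0 for the siRNA and 667, 1374 and 2593 for days 1, 2 and 3, where 9, 2397, 3307 and 4347 were called with it. The cause was not tested. Leaving out 1 library at a time, which leaves 2 residual degrees of freedom, gave 0 for the siRNA each time, 342 to 1129 on day 1 (lowest without siKlf5 day 0), 511 to 3112 on day 2 (lowest without siCtrl day 2) and 1512 to 4234 on day 3 (lowest without siCtrl day 3). Transcripts past 1.5-fold on a day, either direction, numbered 5018, 5253 and 5422 on days 0, 2 and 3 with no filter, and 1744, 1689 and 2061 with a mean of at least 5. The filter changes which transcripts are counted, and why the numbers moved was not tested.

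Among the members, the calls of Tead3, Tead4 and Vgll3 on day 2 and of Tead3, Tead4, Vgll2 and Vgll3 on day 3 held in every alternative run. On day 1 Tead3 lost its call without either day 0 library (adjusted p 0.0548 and 0.0701), Vgll3 without siKlf5 day 0 (0.0611), and Tead4 without either day 0 library (0.0624 and 0.0824), without siCtrl day 1 (0.0506) or with no trend (0.0545). On day 2 Vgll2 lost it without siCtrl day 0 (0.0865), siCtrl day 2 (0.0912), siKlf5 day 0 (0.0537), siKlf5 day 2 (0.0522) or with no trend (0.06), and Wwtr1 without any library of days 0, 2 or 3 (0.0532 to 0.155) or with no trend (0.093). With no trend the calls of Klf5 for the siRNA (0.646), Tead1 (0.138) and Ankrd1 (0.153) on day 1, Wwtr1 on day 3 (0.0705) and Rbms3 (0.0599), Taok3 (0.103), Mob1a (0.0753), Ptpn14 (0.115) and Amotl2 (0.143) on day 3 were lost too. Wwtr1 on day 1 passed the threshold under both scalings. The siRNA differences of Tead4 and Tead2 stayed between -0.64 and -0.49 and between -0.49 and -0.32 with 1 library left out, at adjusted p of 0.475 to 0.693 and 0.467 to 0.693.

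Changes of sign touched only values below the threshold in the fit to all 8 libraries. Tead2 on day 1 was 0.10 with upper-quartile and 0.069 with median-ratio scaling. With 1 library left out the ranges were -0.21 to 0.12 (Tead2, day 1), -0.0040 to 0.32 (Tead2, day 2), -0.30 to 0.040 (Tead2, day 3), -0.42 to 0.0094 (Vgll4, day 1), -0.049 to 0.30 (Vgll4, day 2), -0.11 to 0.38 (Vgll4, day 3), -0.25 to 1.07 (Ctgf, day 3), -0.27 to 0.82 (Cyr61, day 3), -0.20 to 0.019 (Tead1, siRNA) and -0.012 to 0.042 (Yap1, siRNA).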
